A study of Mus musculus with 16 samples.

Results

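The 10 genes described here form the core of the mammalian circadian clock and 1 of its output arms. They are Arntl (also called Bmal1), Clock, Per1, Per2, Per3, Cry1, Cry2, Nr1d1, Nr1d2 and Dbp, taken by their symbols from the 55487 genes counted in each library. The hearts came from C57Bl/6J mice 24 months old, none of which had received any treatment, and RNA was taken from the middle of 3 sections of the left ventricle. The 8 multiparous mice had each gone through more than 3 pregnancies, and the 8 virgin mice served as their age-matched reference. Multiparous libraries are named with the code MP (multiparous 3, 4, 6 and 8) or P (multiparous 1, 2, 5 and 7), whose meaning the labels do not give. All virgin libraries carry the code AA, so parity and library code cannot be told apart between multiparous and virgin hearts. The labels give no time of day at which the hearts were taken, so time of day and group cannot be told apart for any of these genes either. The labels give 8 mice per group but tie no library to an animal, so a p-value here stands for the spread among libraries, which may in part be technical.

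In the textbook account, the proteins BMAL1 and CLOCK bind as a pair to E-box sequences and switch on the Per and Cry genes, whose products return to the nucleus and silence them. The same pair drives Nr1d1 and Nr1d2, which encode the REV-ERB repressors of Arntl, and Dbp, a factor that acts through D-box sequences. Transcripts of Arntl and Dbp peak at opposite times of day in mouse tissues, and in heart muscle this clock is known for its hold over metabolism and ion channels.

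The promoters of 4 members are shown as examples, each with at least 1 of the sequences through which these loops are known to act. They come from RefSeq on GRCm38.p6, in windows from 250 bases before to 50 bases after an annotated start site, written 5′ to 3′ on the gene's strand. Capitals mark the searched motifs. Per3 (chr4:151044616-151044915, minus strand) holds 2 copies of the D-box TTATGTAA, which start 205 and 158 bases before the start site. Cry1 (chr10:85185005-85185304, minus strand) holds the E-box CACGTG, 60 bases before its start site. Per1 (chr11:69098699-69098998, plus strand) holds the E-box, 166 bases before its start site, and the nuclear receptor core site AGGTCA on the opposite strand, 137 bases before it. Arntl (chr7:113207261-113207560, plus strand) holds the core site, 31 bases after its start site.
Per3: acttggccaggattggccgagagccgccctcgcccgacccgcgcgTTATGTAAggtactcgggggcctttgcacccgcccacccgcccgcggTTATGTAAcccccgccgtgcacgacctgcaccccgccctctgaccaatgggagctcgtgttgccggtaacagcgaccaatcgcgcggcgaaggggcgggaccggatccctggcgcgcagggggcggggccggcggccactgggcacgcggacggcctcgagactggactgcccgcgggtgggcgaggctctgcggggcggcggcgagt
Cry1: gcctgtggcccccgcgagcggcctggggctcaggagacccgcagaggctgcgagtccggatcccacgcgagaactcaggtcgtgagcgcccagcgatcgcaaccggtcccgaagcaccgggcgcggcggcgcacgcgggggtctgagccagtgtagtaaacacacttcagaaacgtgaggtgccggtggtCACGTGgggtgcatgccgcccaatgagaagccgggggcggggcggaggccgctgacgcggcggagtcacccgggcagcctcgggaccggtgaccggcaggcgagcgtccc
Per1: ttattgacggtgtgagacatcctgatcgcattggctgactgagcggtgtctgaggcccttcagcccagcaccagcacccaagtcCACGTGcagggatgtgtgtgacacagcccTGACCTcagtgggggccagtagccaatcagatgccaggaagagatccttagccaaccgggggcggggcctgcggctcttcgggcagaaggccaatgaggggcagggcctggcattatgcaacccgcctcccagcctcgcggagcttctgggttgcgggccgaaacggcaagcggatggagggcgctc
Arntl: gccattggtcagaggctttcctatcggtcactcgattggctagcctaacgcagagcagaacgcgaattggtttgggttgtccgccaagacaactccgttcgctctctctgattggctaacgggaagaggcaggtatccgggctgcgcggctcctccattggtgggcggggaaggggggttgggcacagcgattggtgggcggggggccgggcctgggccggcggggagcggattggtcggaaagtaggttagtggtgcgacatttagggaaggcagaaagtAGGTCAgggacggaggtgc
Of the 10 members, 9 had an entry, with 13 windows in all, and each motif was searched on both strands. The E-box stood in 2 of the 13 windows, from 2 members, and in 7.15% of all 32851 promoter windows. The core site stood in 4 of the 13 windows, from 4 members (Arntl, Clock, Nr1d2 and Per1), and in 16.3% of all windows. The windows of Clock and Nr1d2 are not shown. The D-box stood in the Per3 window alone among the 13, in 0.938% of all windows, and 2 or more copies stood in 7 windows (0.0213%). A match is only a match of letters, and the motifs marked did not overlap each other.

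Between 34560606 and 58890976 reads were assigned to genes in 15 libraries and 228325238 in virgin 8. All 10 members were detected in every library, with 213 counts at the least (Per2 in virgin 4). Levels are given as CPM, gene counts relative to library size with TMM factors. The 10 cardiomyocyte markers together reached 65140 to 83090 CPM in multiparous and 60380 to 89440 CPM in virgin libraries. The summed level of 26 kidney markers was 15.3 to 45.8 CPM in multiparous and 25.03 to 168.5 CPM in virgin libraries, and that of 10 liver markers 5.04 to 337.1 and 3.91 to 229.1 CPM. Arntl, Per2 and Dbp were set against 13 library measures (marker sums, depth, reads in no gene, scaling factor). Of these 39 relations, 0 passed at an adjusted p of 0.05, and the lowest adjusted p by Pearson's r was shared by 2 relations of Per2. With the endothelial marker sum Per2 had Pearson's r = -0.61 and Spearman's rho = -0.71 (permutation, adjusted p = 0.238 and 0.0971), and r = -0.66 without the 2 libraries farthest from the median. With the macrophage marker sum it had r = 0.62 and rho = 0.44 (permutation, adjusted p = 0.238 and 0.563), and r = 0.34 without the 2 farthest. In such bulk samples, fewer cells of a type and less RNA per cell cannot be told apart.

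The library multiparous 6, coded MP, stood apart in the clock genes. It had the lowest Arntl, Clock and Cry1 of the 16 libraries and the highest Dbp, Per1, Per2, Per3, Nr1d2 and Cry2. Its depth of 46171990 gene counts and its cardiomyocyte, kidney and liver marker sums of 70370, 29.2 and 7.05 CPM were within the range of the other libraries. Its fibroblast marker sum of 2383 CPM was the highest of the 16, against 2109 CPM in the next library. Its macrophage marker sum of 439.1 CPM was the highest of the multiparous libraries and lay beside 439.7 CPM in the highest virgin library. The part of these cells in its clock gene levels was not tested.

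Per kilobase of exon, the REV-ERB genes were the highest and the period genes Per2 and Per3 the lowest. Over the 16 libraries Nr1d1 averaged 36.9 CPM per kilobase, Nr1d2 19.0, Dbp 11.2, Clock 8.14, Per1 6.49, Cry2 4.75, Arntl 3.76, Cry1 3.55, Per3 1.82 and Per2 1.67. The ranges of the 16 libraries overlapped for each neighbouring pair in this order. Nr1d1 lay above Nr1d2 in 16 of 16 libraries and Nr1d2 above Dbp in 15, while Per3 lay above Per2 in 8. The highest library exceeded the lowest by 9.11-fold for Dbp, 6.40-fold for Per2, 5.73-fold for Arntl and 4.70-fold for Per3. For Clock, Cry1 and Cry2 that ratio was 1.49, 1.66 and 1.68.

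**Figure D1:**
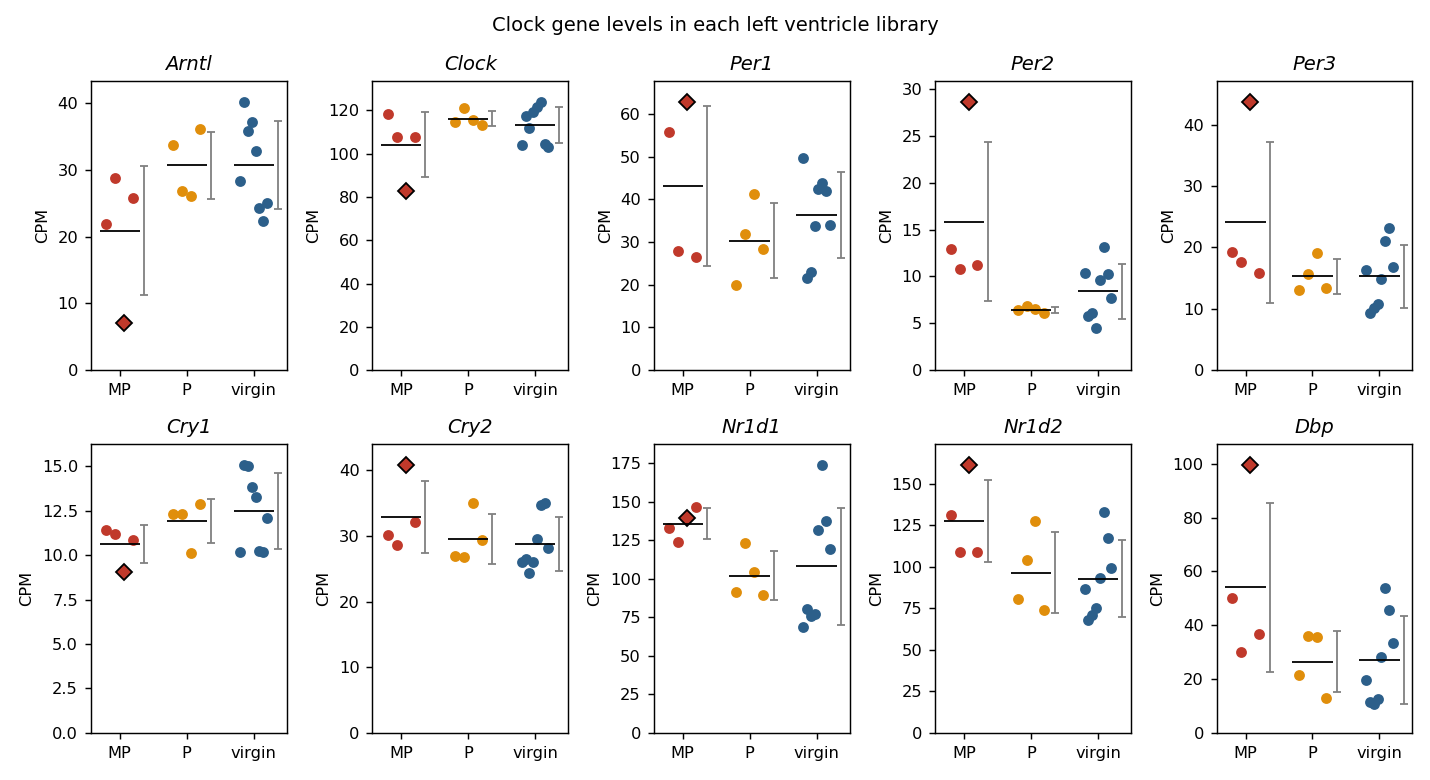
Levels of the 10 clock genes in CPM (linear axis from 0) in the MP-coded and P-coded multiparous libraries and the virgin libraries. Each point is a library, black lines are means, grey bars are 1 SD and the outlined diamond is multiparous 6, which has the highest Dbp (99.5 CPM) and the lowest Arntl (7.01 CPM).

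The activators Arntl and Clock lay slightly lower in multiparous than in virgin hearts, and neither difference passed the test. Arntl (chromosome 7, 113207465 to 113314126, plus strand, GRCm38) had a lowest, median and highest level of 7.01, 26.5 and 36.1 CPM in multiparous and 22.3, 30.6 and 40.1 CPM in virgin libraries. The groups overlapped, and 2 of 8 multiparous libraries lay above the virgin mean. It averaged 25.8 ± 8.8 CPM in multiparous hearts, against 30.8 ± 6.7 CPM in virgin libraries (SD, n = 8 each). In log2 the difference was -0.25 (SE 0.22, 95% interval -0.71 to 0.21, edgeR adjusted p = 0.830), and -0.11 without multiparous 6. Clock (chromosome 5, 76209868 to 76304792, minus strand), whose protein pairs with BMAL1, had the smallest ratio of highest to lowest library of the 10 members. It had a lowest, median and highest level of 83.0, 114.1 and 121.1 CPM in multiparous and 103.3, 114.7 and 123.7 CPM in virgin libraries. The difference was -0.04 in log2 (SE 0.07, 95% interval -0.17 to 0.10, edgeR adjusted p = 0.931) and 0.01 without multiparous 6.

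Of the 10 members, 0 passed at an adjusted p under 0.05 between multiparous and virgin hearts, where edgeR called 2 of the 17813 genes tested (0.0112%), 1 higher and 1 lower (0.00561% each), and 0 had an unadjusted p under 0.05, where 1447 of all genes (8.12%) did. Of 18 kidney markers tested in this comparison, 18 were lower in multiparous hearts, with a median log2 fold change of -2.98, 16 at an unadjusted p under 0.05 and 0 called. DESeq2 and limma voom called 0 members too. The log2 fold changes were positive for 7 members and negative for 3, with a median of 0.13, against a median of -0.003 and 48.6% positive over all genes tested. Since the members move together between libraries, these directions are not 10 separate observations.

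The period genes encode the proteins that, with the cryptochromes, close the negative loop. Per2 (chromosome 1, 91415982 to 91459324, minus strand) had a lowest, median and highest level of 6.06, 8.80 and 28.6 CPM in multiparous and 4.46, 8.62 and 13.1 CPM in virgin libraries. Its multiparous range was set at the top by multiparous 6, and the next library measured 12.9 CPM. This came to a log2 fold change of 0.40 (SE 0.30, edgeR adjusted p = 0.798) and 0.04 without multiparous 6. Per3 (chromosome 4, 151003652 to 151044665, minus strand) had 13.03, 16.7 and 43.6 CPM as lowest, median and highest in multiparous and 9.27, 15.6 and 23.2 CPM in virgin libraries. Its log2 fold change of 0.36 (SE 0.24, edgeR adjusted p = 0.768) became 0.09 without multiparous 6. Per1 (chromosome 11, 69095217 to 69109960, plus strand), a period gene that glucocorticoids and cAMP signals also induce, averaged 36.8 ± 15.2 CPM in multiparous hearts, against 36.3 ± 10.05 CPM in virgin libraries (SD, n = 8 each). Its log2 fold change of 0.02 (SE 0.22) became -0.13 without multiparous 6.

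The cryptochromes, the strongest repressors of the BMAL1 and CLOCK pair, pointed in opposite directions, and neither difference passed. Cry1 (chromosome 10, 85131700 to 85185064, minus strand) averaged 11.3 ± 1.3 CPM in multiparous hearts, against 12.5 ± 2.1 CPM in virgin libraries (SD, n = 8 each), and 1 of 8 multiparous libraries lay above the virgin mean. This gave a log2 fold change of -0.15 (SE 0.10, 95% interval -0.35 to 0.06, edgeR adjusted p = 0.767). Cry2 (chromosome 2, 92403646 to 92434043, minus strand) averaged 31.2 ± 4.7 CPM in multiparous hearts, against 28.8 ± 4.1 CPM in virgin hearts, a log2 fold change of 0.12 (SE 0.09, 95% interval -0.08 to 0.31, edgeR adjusted p = 0.811).

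The REV-ERB genes and Dbp lay higher in multiparous hearts on average, again without passing. Nr1d1 (chromosome 11, 98767932 to 98775333, minus strand) had a lowest, median and highest level of 89.5, 123.5 and 146.9 CPM in multiparous and 68.6, 99.9 and 173.9 CPM in virgin libraries. The virgin range enclosed the multiparous one, with a log2 fold change of 0.14 (SE 0.18, edgeR adjusted p = 0.894). Nr1d2 (chromosome 14, 18204054 to 18239127, minus strand) had 74.0, 108.9 and 161.2 CPM in multiparous and 68.2, 89.7 and 132.8 CPM in virgin libraries. Its log2 fold change was 0.27 (SE 0.16, edgeR adjusted p = 0.723) and 0.18 without multiparous 6. Dbp (chromosome 7, 45705088 to 45710203, plus strand) had the largest difference of the 10. Its lowest, median and highest levels were 12.9, 35.8 and 99.5 CPM in multiparous and 10.9, 24.1 and 53.9 CPM in virgin libraries. The log2 fold change was 0.57 (SE 0.39, 95% interval -0.24 to 1.39, edgeR adjusted p = 0.771), and 0.23 without multiparous 6. Of the exonic bases of Dbp, 539 of 2993 (18.0%) lie opposite exons of Sphk2, and 263 of the 3077 of Nr1d1 (8.5%) lie opposite Thra. The library kit was stranded per the labels' protocols, but the strand setting of the counting is not given in the sources used here, so these counts may hold reads of the opposite gene.

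**Figure D2:**
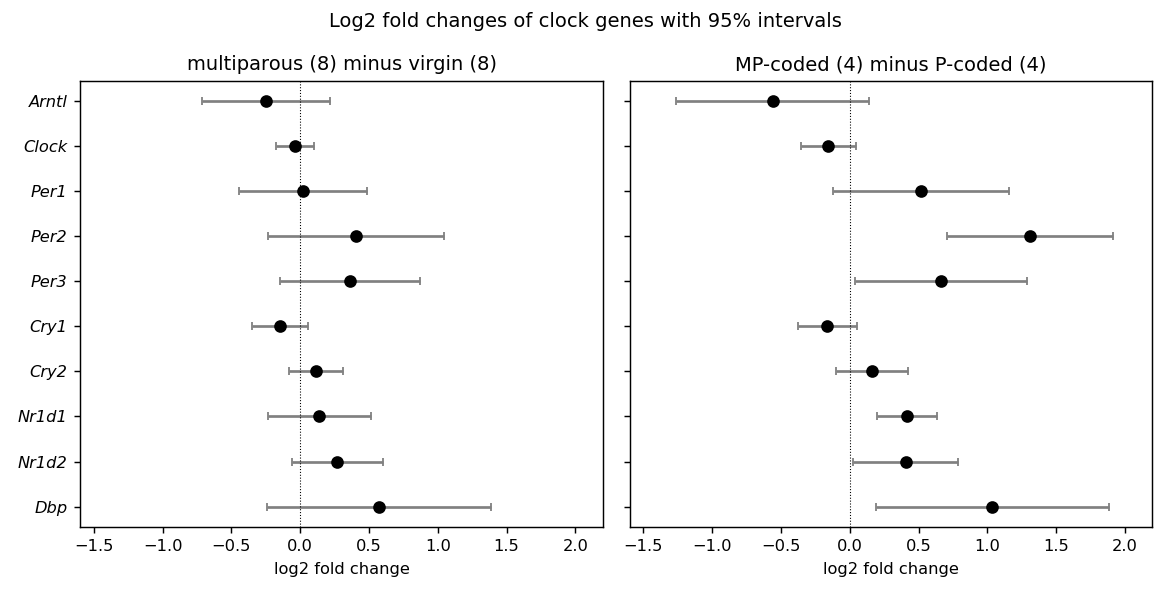
Log2 fold changes of the 10 clock genes (x axis) with 95% intervals from the edgeR fits, for the 8 multiparous minus the 8 virgin libraries (left) and the 4 MP-coded minus the 4 P-coded libraries (right). Every interval on the left includes 0, while those of Per2, Per3, Nr1d1, Nr1d2 and Dbp on the right lie above it, before adjustment over all genes.

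Within the multiparous hearts, the fitted differences by library code were larger in size than those by parity for each of the 10 members, and none of either passed. Without multiparous 6 this held for all but Cry1 and Cry2. Whether the 2 sets of differences differ was not tested. Per2 measured 12.9, 10.8, 28.6 and 11.2 CPM in the MP-coded libraries (multiparous 3, 4, 6 and 8), against 6.37, 6.85, 6.48 and 6.06 CPM in the P-coded libraries (multiparous 1, 2, 5 and 7). All 4 MP-coded libraries lay above all 4 P-coded ones, and the P-coded values lay close together. The log2 fold change was 1.31 (SE 0.28, 95% interval 0.70 to 1.92), with an unadjusted p of 0.000585 and an edgeR adjusted p of 0.108 over 18123 genes.

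Nr1d1 was the other member whose codes did not overlap. The share of all genes tested whose codes did not overlap was not counted. Nr1d1 measured 133.3, 123.7, 139.9 and 146.9 CPM in the MP-coded libraries, against 91.5, 123.4, 104.5 and 89.5 CPM in the P-coded libraries. The gap between the nearest libraries, multiparous 4 and multiparous 2, was thus narrow. The fitted difference was 0.42 in log2 (SE 0.10, 95% interval 0.20 to 0.63, edgeR adjusted p = 0.149) and 0.40 without multiparous 6.

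Of the 10 members, 0 passed in this comparison, in which edgeR called 22 of 18123 genes (0.121%), 18 higher (0.0993%) and 4 lower (0.0221%) in MP-coded libraries. At an unadjusted p under 0.05 stood 5 members (Per2, Nr1d1, Dbp, Nr1d2 and Per3) and 1993 of all genes (11.0%). Markers of other tissues moved with the codes too. Of 10 liver markers, 10 were lower in MP-coded libraries at an unadjusted p under 0.05 (median log2 fold change -3.72, 0 called), with sums of 7.05 to 39.15 CPM in MP-coded and 5.04 to 337.1 CPM in P-coded libraries. Of 13 kidney markers tested 3 were called higher (sums of 22.2 to 45.8 CPM in MP-coded and 15.3 to 22.9 CPM in P-coded libraries), and of 6 brain markers tested 1 (118 to 149.1 CPM in MP-coded and 98.9 to 102.5 CPM in P-coded libraries). Their part in the member differences was not tested.

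The call of Per2 depended on the fit. It passed in DESeq2 (adjusted p = 0.0179), in edgeR with no filter on low counts (adjusted p = 0.00565) and in edgeR without multiparous 6 (log2 fold change 0.85, adjusted p = 0.00738), where the 3 remaining MP-coded values lay between 10.8 and 12.9 CPM. Nr1d1 passed in DESeq2 (adjusted p = 0.00784) and with no filter (adjusted p = 0.0237). Limma voom called 0 members.

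Dbp measured 50.0, 29.98, 99.5 and 36.6 CPM in the MP-coded libraries, against 21.6, 36.1, 35.5 and 12.9 CPM in the P-coded libraries. The codes overlapped, since multiparous 4 lay below multiparous 2 and 5. The log2 fold change was 1.04 (SE 0.39, edgeR adjusted p = 0.345) and 0.56 without multiparous 6. Per3 and Nr1d2 had log2 fold changes of 0.66 (SE 0.28) and 0.41 (SE 0.17), and 0.20 and 0.27 without multiparous 6.

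Arntl measured 22.0, 28.8, 7.01 and 25.8 CPM in the MP-coded libraries, against 33.7, 26.9, 26.1 and 36.1 CPM in the P-coded libraries. The codes overlapped only through multiparous 4, and 0 of 4 MP-coded libraries lay above the P-coded mean. The log2 fold change was -0.56 (SE 0.32, 95% interval -1.26 to 0.14, edgeR adjusted p = 0.560) and -0.27 without multiparous 6. The remaining log2 fold changes were -0.15 (SE 0.09) for Clock, -0.16 (SE 0.10) for Cry1, 0.16 (SE 0.12) for Cry2 and 0.52 (SE 0.29) for Per1. Without multiparous 6 they were -0.06, -0.10, 0.04 and 0.28.

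Set against the same 8 virgin libraries, the codes gave the following values side by side. MP-coded hearts had log2 fold changes of 1.00 for Dbp, 0.92 (SE 0.29) for Per2, 0.66 (SE 0.28) for Per3, -0.56 for Arntl and 0.46 (SE 0.17) for Nr1d2. Without multiparous 6 these were 0.53, 0.47, 0.21, -0.26 and 0.33. Here 0 members passed, where edgeR called 0 of 18442 genes (0%). At an unadjusted p under 0.05 stood 4 members and 1596 of all genes, while DESeq2 called 0 members and 115 genes, and limma voom 0 of either. P-coded hearts had a log2 fold change of -0.39 (SE 0.23) for Per2 and values between -0.26 and 0.05 for the others. Again 0 members passed in edgeR, DESeq2 or limma voom, where edgeR called 97 of 18612 genes (0.521%), and 0 had an unadjusted p under 0.05.

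The libraries could be laid out by the difference between log2 Dbp and log2 Arntl, an order that was described and not tested. It was -0.64, 0.43, 1.19, 0.06, 0.44, 3.82, -1.48 and 0.50 in multiparous 1 to 8, and -0.52, -1.81, -1.71, -1.57, -0.21, 1.15, 1.03 and 0.40 in virgin 1 to 8. Virgin 2, 3 and 4 with multiparous 7 formed the end with high Arntl and low Dbp, and multiparous 6 alone the other end. Its median was 0.43 in multiparous and -0.36 in virgin libraries. The groups overlapped between -1.48 and 1.15, and 2 multiparous libraries, multiparous 3 (1.19) and multiparous 6 (3.82), lay above every virgin one. By code it lay between 0.06 and 3.82 in MP-coded and between -1.48 and 0.44 in P-coded libraries.

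**Figure D3:**
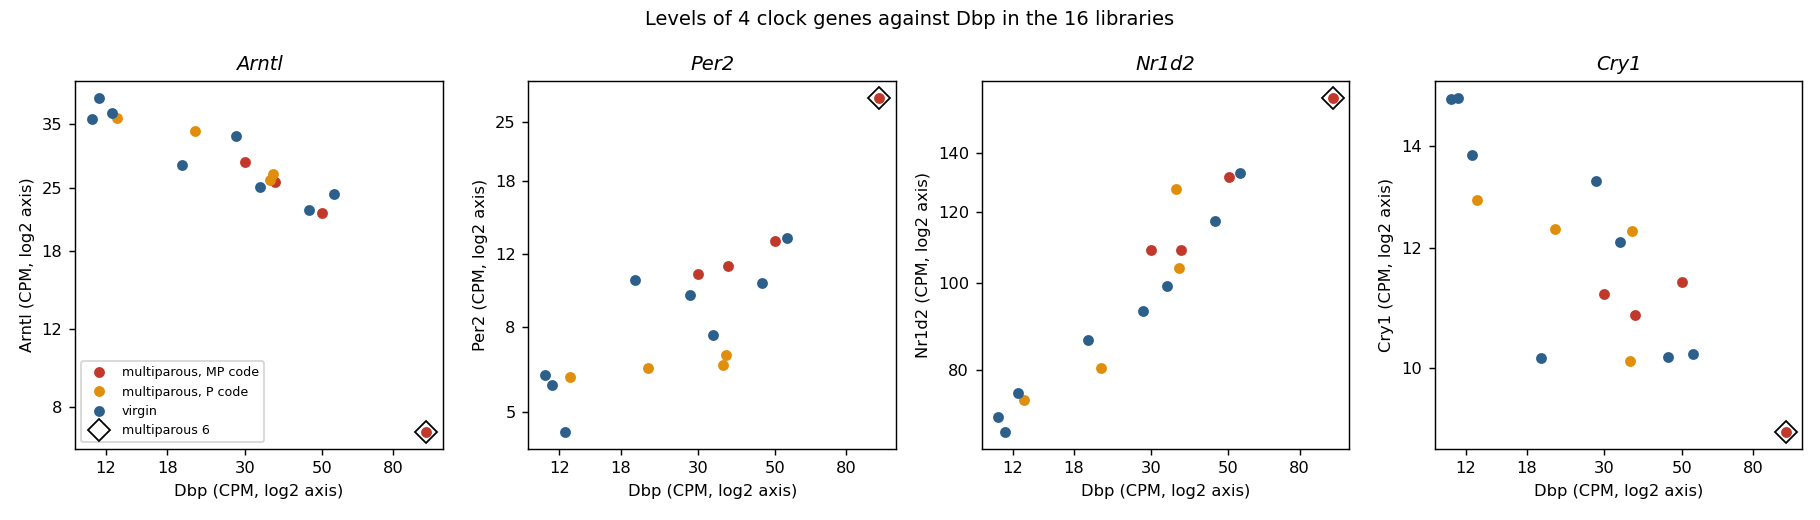
Levels of Arntl, Per2, Nr1d2 and Cry1 (y axes) against Dbp (x axis) in the 16 libraries, in CPM on log2 axes, coloured by library code, with multiparous 6 outlined. Arntl and Cry1 are lower and Per2 and Nr1d2 higher where Dbp is higher, and the 4 P-coded libraries stay at 6.06 to 6.85 CPM of Per2 while their Dbp spans 12.9 to 36.1 CPM.

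Across the 16 libraries the members fell into opposed arms. Arntl ran against Dbp (Pearson's r = -0.84, Spearman's rho = -0.94, permutation p = 1e-05 for both, the smallest that 100000 resamples can give). The adjusted values over the 45 pairs were 5.6e-05 and 9e-05. Without multiparous 6 the correlation was -0.93, without the 2 libraries farthest from the median of Arntl it was -0.91, and within multiparous and virgin hearts it was -0.89 and -0.91 (n = 8 each, described only). Arntl ran against Per3, whose promoter window above holds the paired D-box, (r = -0.93, rho = -0.92). It also ran against Nr1d2 (r = -0.82, rho = -0.92), Per2 (r = -0.87), Cry2 (r = -0.78), Per1 (r = -0.68) and Nr1d1 (r = -0.53), each with an adjusted permutation p under 0.05.

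Dbp ran with Nr1d2 (r = 0.97, rho = 0.96), the closest of all pairs, with r = 0.95 in multiparous and 0.98 in virgin hearts. It also ran with Per3 (r = 0.92), Nr1d1 (r = 0.85), Per2 (r = 0.83), Cry2 (r = 0.82) and Per1 (r = 0.69). Cry1, whose window above holds the E-box as that of Per1 does, was on the side of Arntl (r = 0.74, rho = 0.79) and against Dbp (r = -0.82, rho = -0.74) and Cry2 (r = -0.79, rho = -0.70). The cryptochromes thus stood in opposite arms, with adjusted permutation p of 0.000802 and 0.00568 for their pair.

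Clock was the exception. Its correlation with Arntl over all 16 libraries (r = 0.78, adjusted permutation p = 0.0164) rested on multiparous 6: it was 0.25 without that library and 0.20 without the 2 libraries farthest from the median, and the rank correlation was 0.29 (adjusted p = 0.325). With Dbp, Clock had r = -0.43 and rho = -0.06 (adjusted permutation p = 0.0994 and 0.842), and -0.01 without multiparous 6.

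Of the 45 pairs, 39 passed at an adjusted permutation p under 0.05 by Pearson's r, 23 positive and 16 negative, and 33 by Spearman's rho. All 33 passed both. The sign over all 16 libraries was kept in 45 of 45 pairs within multiparous hearts and 43 within virgin hearts. It was kept in 44 with the mean of each library code taken out and in 41 without multiparous 6. Within the 7 multiparous libraries other than multiparous 6, Clock turned sign with Arntl (r = -0.21), Per1 (0.45), Per3 (0.05), Nr1d2 (0.10) and Dbp (0.19). No other pair turned there, but some became weaker. Cry2 had r = 0.69 with Dbp and -0.82 with Arntl in the 8 multiparous libraries, against 0.28 and -0.40 in the 7. With Cry1 it had -0.92 in the 8 and -0.81 in the 7. The pairs share their libraries, and relative levels within a library share its scaling.

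**Figure D4:**
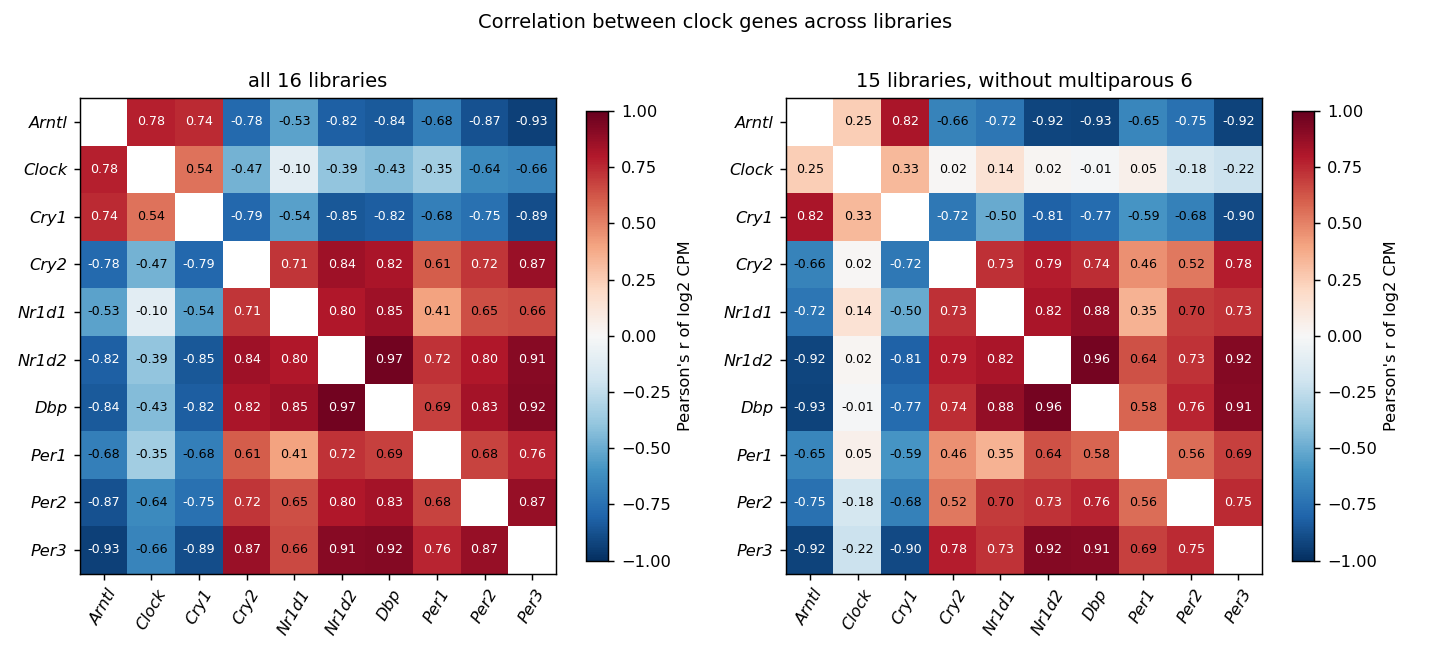
Pearson's r between log2 CPM of each pair of clock genes over all 16 libraries (left) and over the 15 libraries without multiparous 6 (right), on a colour scale from -1 to 1. Arntl and Cry1 are positively related and run against the block from Cry2 to Per3, and the row of Clock fades to values between -0.22 and 0.33 without multiparous 6.

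Most members varied between libraries of 1 group more than most genes of like level. The SD of log2 CPM of Dbp was 0.86 in multiparous and 0.91 in virgin hearts, where the median of 2443 genes of like level was 0.10 in both. In virgin hearts it exceeded 99.9% of those genes. For Arntl it was 0.74 in multiparous and 0.32 in virgin hearts, above 99.8% and 96.8% of genes of like level. Without multiparous 6 the SD of Arntl in multiparous hearts was 0.24, above 95.7%. For Per1, Per2, Per3, Nr1d1 and Nr1d2 the share ranged from 97.4% to 99.7% in multiparous and from 97.8% to 99.5% in virgin hearts. Clock, with an SD of 0.17 and 0.11, exceeded 90.0% and 59.0%, and Cry1 exceeded 77.2% and 88.6%. Without multiparous 6 the multiparous SD was 0.64 for Dbp (above 99.8%), 0.46 for Per2 (98.3%), 0.23 for Per3 (93.4%) and 0.064 for Clock (24.6%). The multiparous SD also holds the difference between the codes. By code, the SD of Per2 was 0.66 in MP-coded and 0.073 in P-coded libraries, and that of Nr1d1 0.11 and 0.21. For Per1, Per3 and Nr1d2 it lay between 0.255 and 0.67 in either code.

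A list of 64 further clock genes was read alongside, holding regulators, cofactors, common cycling genes and heart genes known to depend on the clock. Between multiparous and virgin hearts 0 of the 64 passed in edgeR, DESeq2 or limma voom, with 34 higher and 30 lower, a median log2 fold change of 0.01 and 6 (against 8.12% of all genes) at an unadjusted p under 0.05. The smallest p belonged to Pik3r1, a regulatory subunit of PI3-kinase (282.5 ± 34.6 CPM in multiparous hearts against 241.7 ± 30.2 CPM in virgin libraries, SD, n = 8 each, log2 fold change 0.22, edgeR adjusted p = 0.402). Nfil3, a repressor that competes with DBP for D-boxes, averaged 12.0 ± 3.1 CPM in multiparous hearts, against 14.8 ± 4.6 CPM in virgin hearts, with an edgeR adjusted p of 0.752.

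Between MP-coded and P-coded hearts 0 of the 64 passed in edgeR as well, with 13 at an unadjusted p under 0.05, against 11.0% of all genes. DESeq2 called Npas2 and Pik3r1, and edgeR with no filter called Npas2, Pik3r1 and Ciart. Npas2, a close relative of Clock that also pairs with BMAL1, measured 6.47, 7.89, 3.54 and 7.99 CPM in the MP-coded libraries, against 11.7, 11.0, 10.0 and 14.2 CPM in the P-coded libraries. The codes did not overlap, and the log2 fold change was -0.87 (SE 0.21, edgeR adjusted p = 0.166). For this gene and the next, the share of all genes tested without such overlap was not counted. Pik3r1 measured 312.0 ± 18.5 CPM in MP-coded and 253.0 ± 11.5 CPM in P-coded hearts (SD, n = 4 each), without overlap (edgeR adjusted p = 0.0951). Ciart, a repressor of the BMAL1 and CLOCK pair, measured 5.32 ± 4.18 CPM in MP-coded and 1.89 ± 0.49 CPM in P-coded hearts, with 11.4 CPM in multiparous 6. Its log2 fold change was 1.51, and 0.81 without that library. Tef and Hlf, the relatives of Dbp, had log2 fold changes of 0.49 (SE 0.20) and 0.39 (SE 0.18), and 0.24 and 0.15 without multiparous 6.

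Per1 is also a member of the list of 16 glucocorticoid-induced genes. Of these, edgeR called 6 higher and 0 lower in MP-coded than in P-coded hearts. Over all 18123 genes it called 18 higher (0.0993%) and 4 lower (0.0221%). The list was chosen with earlier results of these data known. Called or not, 13 had a positive and 3 a negative log2 fold change. Against virgin hearts 0 of the list were called for either code. There 12 were higher and 4 lower in MP-coded hearts, and 3 higher and 13 lower in P-coded hearts. Between the codes, leaving out each library gave 3 to 6 of the list called higher, 3 without multiparous 1 or 7, and in 1 fit of the 3 codes 2. The 4 with the smallest p were Zbtb16, Lcn2, Mt2 and Mt1. Zbtb16, a zinc finger repressor, measured 155.7 ± 6.4 CPM in MP-coded and 68.2 ± 9.6 CPM in P-coded hearts (SD, n = 4 each, log2 fold change 1.19, SE 0.09, edgeR adjusted p = 0.000578). Per1 was not among the 6. It measured 55.8, 28.0, 62.7 and 26.4 CPM in the MP-coded libraries, against 19.9, 31.8, 41.3 and 28.4 CPM in the P-coded libraries (edgeR adjusted p = 0.552). Of the 16 immediate early genes 0 passed in edgeR in either comparison, with 7 at an unadjusted p under 0.05 between the codes (against 11.0% of all genes) and 2 between multiparous and virgin hearts (against 8.12%).

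To see which genes moved with Dbp between libraries, every gene was fitted to log2 Dbp in edgeR with a term for library code. This fit was chosen after the values of Dbp were seen. Dbp varied 9.11-fold between libraries and was left out of the genes tested. Of 18904 genes, 19 passed (0.101%), 12 with a positive slope (0.0635%) and 7 with a negative slope (0.037%). Of the 9 other members 4 passed, all with positive slopes in log2 units per log2 unit of Dbp. These were Per3 at 0.54 (SE 0.07, adjusted p = 0.00214), Per2 at 0.50 (SE 0.09, adjusted p = 0.0425), Nr1d2 at 0.38 (SE 0.03, adjusted p = 4.4e-05) and Nr1d1 at 0.38 (SE 0.07, adjusted p = 0.0463). Arntl had a slope of -0.45 (SE 0.09, adjusted p = 0.108) and Clock of -0.04 (SE 0.04).

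Of the 64 further clock genes 6 passed. Nfil3 had a slope of -0.49 (SE 0.05, adjusted p = 0.000155) and Npas2 of -0.37 (SE 0.06, adjusted p = 0.0238). Ciart had a slope of 0.78 (SE 0.11) and Bhlhe40, a repressor of the E-box arm, of 0.30 (SE 0.04). Usp2, a deubiquitinase of clock proteins, had a slope of 0.26 (SE 0.04). Tcap, which caps titin at the Z-disc and is known as a clock-dependent gene in heart, had a slope of 0.39 (SE 0.04, adjusted p = 0.000695). Its level was 248.8 CPM at the least and 538.2 CPM at the most in multiparous hearts, and 228.3 and 447.9 CPM in virgin hearts, and in each group the highest Tcap came from the library with the highest Dbp.

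Outside these lists the genes with a positive slope were Ppat, the first enzyme of purine synthesis, Fgf14, a partner of sodium channels, Calm2, which encodes calmodulin, and the predicted gene Gm45909. Those with a negative slope included Ypel2, Fam124b, the calcineurin inhibitor Rcan1 and Ankrd23. Of the 15 glucocorticoid-induced genes other than Per1 and of the 16 immediate early genes 0 passed. With 1 library left out at a time, the number of genes passing ranged from 9 (without virgin 6) to 31 (without virgin 1), and members from 2 to 5, with 2 in 9 of the 16 cases. Without multiparous 6 it was 20, with 4 members.

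Ankrd23, a titin-binding ankyrin repeat protein, was 1 of the 2 genes called between multiparous and virgin hearts. It averaged 106.3 ± 15.1 CPM in multiparous hearts, against 166.8 ± 27.6 CPM in virgin libraries (SD, n = 8 each, log2 fold change -0.65, SE 0.10, edgeR adjusted p = 0.0446). Without multiparous 6 its log2 fold change was -0.61 and its adjusted p 0.0582, so it was not called. Against Dbp it had a slope of -0.21 (SE 0.03, adjusted p = 0.0158), with r = -0.95 in multiparous and -0.86 in virgin hearts. With log2 Dbp as a covariate, Ankrd23 was the single gene called between multiparous and virgin hearts, with a log2 fold change of -0.51 (SE 0.05, edgeR adjusted p = 0.000271), and of -0.52 (adjusted p = 0.000566) without multiparous 6. In the libraries with 29.98 to 36.6 CPM of Dbp, it measured 97.7 to 109.2 CPM in multiparous 2, 4, 5 and 8 and 170.2 CPM in virgin 8. The other called gene, Plekhh1, had a log2 fold change of 0.94 with no covariate (SE 0.15, edgeR adjusted p = 0.0446). Without multiparous 6 it had 0.94 too, with an edgeR adjusted p of 0.0582, so it was not called. Against Dbp, Plekhh1 had a slope of 0.09 (SE 0.10), and with Dbp as a covariate a log2 fold change of 0.93 (SE 0.16, edgeR adjusted p = 0.135).

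With the same covariate, the differences of the members between multiparous and virgin hearts lay between -0.26 (Per1) and 0.04 (Nr1d2) in log2 units. Between MP-coded and P-coded hearts Per2 had a log2 fold change of 0.66 (SE 0.24, unadjusted p = 0.0191, edgeR adjusted p = 0.548), against 1.31 with no covariate. Nr1d1 had one of 0.28 (SE 0.11, edgeR adjusted p = 0.561), against 0.42, while the other members lay between -0.07 and 0.04. The drop of Per2 was smaller without multiparous 6. There it had 0.76 with the covariate (SE 0.096, edgeR adjusted p = 0.0972), against 0.85 with none. Nr1d1 had 0.26 there, against 0.40.

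**Figure D5:**
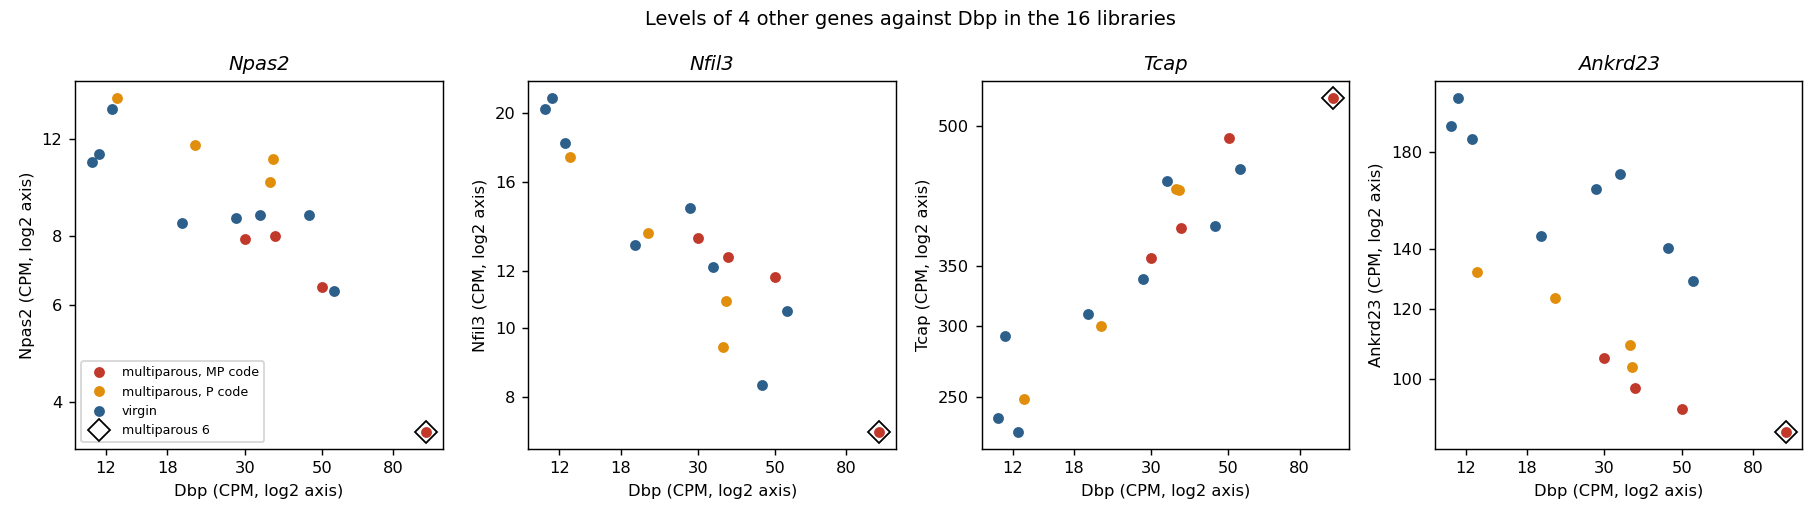
Levels of Npas2, Nfil3, Tcap and Ankrd23 (y axes) against Dbp (x axis) in the 16 libraries, in CPM on log2 axes, coloured by library code, with multiparous 6 outlined. Npas2 and Nfil3 are lower and Tcap higher where Dbp is higher, and Ankrd23 runs down with Dbp in both groups with the multiparous libraries below the virgin ones at like Dbp.

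Over the same 16 libraries, the 5 tested genes most like Arntl were Slc41a3 (r = 0.90), Fam124b (r = 0.90), Adam19 (r = 0.89), Npas2 (r = 0.89) and Nudt12 (r = 0.88). The 3 most opposed were Per3 (r = -0.93), Tef (r = -0.89) and Per2 (r = -0.87). The 5 most like Dbp were Nr1d2 (r = 0.97), Tcap (r = 0.94), Per3 (r = 0.92), Bhlhe40 (r = 0.91) and Usp2 (r = 0.89), and the 3 most opposed Nfil3 (r = -0.92), Ypel2 (r = -0.91) and Fam124b (r = -0.89). The other members stood far apart in these orders: by the size of r with Dbp among 17812 genes, Nr1d2 ranked 1, Per3 ranked 4 and Nr1d1 ranked 20, while Per1 ranked 263 and Clock ranked 2877. These correlations across 16 libraries are descriptions with no test.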

How the data were processed

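RNA of 16 left ventricle mid sections was sequenced from stranded total RNA libraries depleted of ribosomal RNA, per the labels' protocols. The authors deposited raw read counts per gene, 1 table per library. The submitters' processing notes name HTSeq 0.11.1, STAR 2.7.11b, SAMtools 1.19.2, Trim Galore 0.6.10, cutadapt 4.8, FastQC 0.12.1 and bcl2fastq 2.20, and the build GRCm38.p6. Neither the annotation release nor the strand setting used for counting is given in the sources used here. Reads in no gene, 26.5% to 33.1% per library, were left out of library sizes and tests. Gene spans and exon lengths came from the GENCODE annotation of GRCm38, matched by identifier for 98.1% of genes and all 10 members.

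The test across genes was that of edgeR 4.0.16, run in R 4.3.3 (TMM factors, filterByExpr, quasi-likelihood F-test, Benjamini-Hochberg adjustment over all genes tested, calls at an adjusted p under 0.05). SEs were taken from the F statistic. Comparisons were multiparous against virgin, MP against P codes, and each code against virgin, with no covariate. Correlations used log2 CPM with a prior count of 2 and two-sided permutation with 100000 resamples, adjusted over 45 pairs. Genes of like level lay within 0.5 log2 CPM of a member. The fits were tested on simulated counts. Of 1.5-fold and 2-fold changes, 74.2% and 92.3% were called between multiparous and virgin libraries, and 54.5% and 74.6% between the codes. Of slopes of 0.25 and 0.5 on log2 Dbp, 37% and 68% were called. Most members varied more than most genes of like level, so these shares need not hold for them.

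The members and the gene lists were chosen with earlier results of these data known. The text names all members, from each list up to 4 genes called or else the 2 with the smallest p (not all of these are printed), the genes most and least like Arntl and Dbp, and, chosen after their values were seen, the genes that followed Dbp, of which 1 is not reported here. Alternatives were other scaling, filters, DESeq2 1.42.0, limma voom (limma 3.58.1), a kidney marker covariate, 1 fit of the 3 codes, a replicate block and leaving out each library. The fit to Dbp, Dbp as a covariate, the relations to library measures and further values without multiparous 6 were added after seeing the data. Gene counts per library gave the depth (34560606 to 228325238), and intervals of fold changes cover the spread between libraries.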

Additional observations from a re-analysis of the deposited data

Results flagged for a closer look

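In each of the 10 members, the multiparous, virgin, MP-coded and P-coded libraries were searched for a library far from the others, 40 groups of values in all. Of these, 6 held one, and in each of the 6 it was multiparous 6. Chance would give about 1 in 20 groups only for normally distributed values, and the search used CPM and was not run in log2. These groups share libraries and the members move together, so the 6 are not separate observations. Among the 8 multiparous libraries, multiparous 6 was far below the next one in Clock (83.0 against 107.6 CPM). It was far above the next one in Per2 (28.6 against 12.9 CPM), in Per3 (43.6 against 19.2 CPM) and in Dbp (99.5 against 50.0 CPM). Among the 4 MP-coded libraries it stood apart in Per2 and Per3, with the same values.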

How the results depend on the processing

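The count of members called was 0 in every alternative run for multiparous against virgin, P-coded against virgin and MP-coded against virgin hearts. Counts of all genes moved more. Between multiparous and virgin hearts edgeR called 2 genes, against 0 with library totals without factors, 254 in DESeq2, 56 with no filter on low counts, 0 with the kidney marker sum as covariate and 1 with Dbp as covariate, the last chosen after seeing the data. With each library left out in turn it ranged from 0 to 55, with 24 without multiparous 3 and 5, 23, 33 and 55 without virgin 2, 1, 5 and 7. The log2 fold change of Per1 turned to -0.029 in limma voom. With each library left out it ranged from -0.13 (without multiparous 6) to 0.11, and that of Clock from -0.059 to 0.012 (without multiparous 6).

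Between MP-coded and P-coded hearts edgeR called 22 genes, against 7 with library totals, 368 in DESeq2, 13 in limma voom, 389 with no filter, 6 with the kidney covariate, 2 in 1 fit of the 3 codes and 2 with Dbp as covariate, the last added after seeing the data. With each library left out it ranged from 3 (without multiparous 1 or 7) to 197 (without multiparous 5), with 7 without multiparous 2 or 3. Members called were 2 in DESeq2 and 2 with no filter, and 0 to 1 with each library left out. Further clock genes called were 2 in DESeq2 and 3 with no filter.

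Between P-coded and virgin hearts the 97 genes became 335 in DESeq2, 1 in limma voom, 229 with no filter, 0 with a filter of 1 CPM, 0 with the kidney covariate and 166 in 1 fit of the 3 codes. With each library left out it ranged from 0 (without multiparous 1, 2 or 7 or virgin 3, 4 or 8) to 170 (without multiparous 5), with 33, 1 and 51 without virgin 2, 6 and 7. Of the further clock genes, Crebbp alone was called, 1 with library totals and 1 in DESeq2. Library totals turned the log2 fold changes of Arntl and Per3 to 0.037 and 0.025, DESeq2 that of Per3 to 0.00058, and limma voom those of Arntl, Per3 and Dbp to 0.023, 0.021 and 0.057. The kidney covariate turned those of Clock, Cry2 and Nr1d2 to -0.012, -0.11 and -0.016. With each library left out, Arntl ranged from -0.0895 to 0.068, Per3 from -0.13 to 0.11, Cry1 from -0.11 to 0.0028, Cry2 from -0.060 to 0.079, Nr1d1 from -0.19 to 0.046, Nr1d2 from -0.11 to 0.16 and Dbp from -0.22 to 0.20. Between MP-coded and virgin hearts the count of 0 genes became 1 with library totals, 115 in DESeq2 and 1 in 1 fit of the 3 codes, and 0 to 5 with each library left out (5, 4 and 3 without virgin 1, 6 and 7). Pik3r1 alone of the further clock genes was called there, 1 in DESeq2 and 0 to 1 with each library left out (1 without virgin 6).

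The fit to Dbp called 19 genes, 4 members and 6 further clock genes. With Arntl in place of Dbp it called 9, 2 and 3, and with no term for the library code 46 genes and 7 members, both chosen after seeing the data. With each library left out genes ranged from 9 to 31, members from 2 to 5 and further clock genes from 3 to 7. Members were 2 without multiparous 1, 3 or 4 or any of virgin 2 to 7, and further clock genes 3 without virgin 6. The correlation of Dbp with Clock became 0.052 without the 2 libraries farthest from the median. The cause of these changes was not tested.

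Multiparous and virgin titles share the numbers 1 to 8, but nothing ties equal numbers to a common animal or day. The correlation of deviations of same-numbered libraries was -0.106 to 0.291, over 0.1 in 1 of 8 pairs, and 1 library correlated best with its own number. With the replicate block edgeR called 33 genes and 0 members, and Per1 had a log2 fold change of -0.029. No paired analysis was possible because MP-coded and P-coded libraries share no number, and for each code against virgin hearts none was run, since the numbers do not pair the libraries.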
